A study of Mus musculus with 29 samples.

Results

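The Ugt2b genes encode UDP-glucuronosyltransferases, enzymes of the endoplasmic reticulum that join glucuronic acid from UDP-glucuronate to steroids, bile acids, fatty acids and drugs. The sugar makes these compounds more soluble, so that they can leave through bile and urine. In mouse the liver is a main site of this reaction, the genes lie next to each other as products of duplication, and Ugt2b1 and Ugt2b38 are known for higher levels in males. The 7 genes described here (Ugt2b1, Ugt2b5, Ugt2b34, Ugt2b35, Ugt2b36, Ugt2b37 and Ugt2b38) were found by matching the Ensembl identifiers of the deposited tables to these symbols, and all 7 were found among 38124 genes. The members were chosen by their symbols, but the family was selected on measured values: the exon reads of Ugt2b38 had stood out in soy livers against control livers. That comparison is therefore given as a description, with no test.

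The tissues sequenced were liver and hindlimb muscle, taken from male mice of the inbred C57BL/6 strain. The mice were 14 weeks old when bought and 4 months old when the diets began. Control mice were given 95% of their free intake (13.6 kcal per day). Soy, fish and lard mice were held at 60% (8.6 kcal per day), and their names stand for the fat of the diet, soybean oil, fish oil or lard. The title of the series asks whether omega-3 fatty acids, the characteristic fats of fish oil, turn restricted expression part of the way back toward control.

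Liver had 3 control, 4 soy, 4 fish and 4 lard libraries, and hindlimb muscle had 14 libraries in all. Livers held 11315231 to 21278699 exon reads. Soy livers 1073 and 1159 stood apart, with 5.47% and 5.41% of gene reads outside exons against 7.90% to 8.92% in the other 13 livers. Several results that rest on them are given with and without them, and the other soy values include them. Levels in liver are given as CPM, exon reads per 1e6 of the library total scaled by trimmed mean of M values (TMM) factors. The 6 hepatocyte markers were high in each liver, at a summed 77612 to 102919 CPM in control and 92051 to 165339 CPM in restricted livers. Skeletal muscle markers summed to 1991 CPM in fish liver 1123 and to at most 250.7 CPM in the other livers. Of the 6 intestine and kidney markers, Fabp2 had 35.7 to 143.0 CPM over the livers and Vil1 at most 0.894 CPM. Cdx2, Umod and Slc34a1 had at most 0.0710 CPM in any liver, and Kap was at 0 in all livers.

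The 7 genes span 534 kb of chromosome 5 in the GRCm38 build (chr5:86889767-87424203), and 6 of them are read from the minus strand. In the GENCODE M21 annotation their order along the chromosome is Ugt2b34 (chr5:86889767-86906937), Ugt2b1 (chr5:86916638-86926530), Ugt2b35 on the plus strand (chr5:87000860-87013275), Ugt2b36 (chr5:87065927-87092555), Ugt2b5 (chr5:87124960-87140318), Ugt2b37 (chr5:87240493-87254804) and Ugt2b38 (chr5:87409942-87424203). Each has 6 exons in its longest coding transcript. The coding sequences fall into a close and a distant part: Ugt2b5 and Ugt2b38 were identical at 97.0% of aligned positions, Ugt2b5 and Ugt2b37 at 94.7%, and Ugt2b37 and Ugt2b38 at 94.1%. Ugt2b35 and Ugt2b36 matched each other at 88.3%. Ugt2b1 and Ugt2b34 matched any other member at no more than 74.7%.

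The bases before the start sites follow the same division. The 250 bases upstream of the RefSeq start were 84.8% identical between Ugt2b37 and Ugt2b38, 81.5% between Ugt2b5 and Ugt2b38, and 45.6% to 48.3% between Ugt2b1 and the other members. These 3 close promoters are shown because their genes have nearly the same coding sequence and very different levels. The sequences come from RefSeq on GRCm38.p6, minus strand, 5′ to 3′, at chr5:87424204-87424453 for Ugt2b38, chr5:87254789-87255038 for Ugt2b37 and chr5:87140341-87140590 for Ugt2b5, each ending at the last base before the start. Capitals mark a match to GTTANNNNTTAAC, a word with free bases in its middle.
Ugt2b38: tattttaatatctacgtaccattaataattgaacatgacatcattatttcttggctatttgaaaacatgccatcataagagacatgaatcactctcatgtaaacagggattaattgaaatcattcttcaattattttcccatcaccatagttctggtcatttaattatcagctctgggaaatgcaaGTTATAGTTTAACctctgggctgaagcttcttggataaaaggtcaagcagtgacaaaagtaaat
Ugt2b37: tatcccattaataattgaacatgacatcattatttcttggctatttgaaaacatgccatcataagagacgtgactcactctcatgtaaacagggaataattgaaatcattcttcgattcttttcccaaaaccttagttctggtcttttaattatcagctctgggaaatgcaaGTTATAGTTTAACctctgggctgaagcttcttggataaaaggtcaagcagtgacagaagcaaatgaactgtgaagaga
Ugt2b5: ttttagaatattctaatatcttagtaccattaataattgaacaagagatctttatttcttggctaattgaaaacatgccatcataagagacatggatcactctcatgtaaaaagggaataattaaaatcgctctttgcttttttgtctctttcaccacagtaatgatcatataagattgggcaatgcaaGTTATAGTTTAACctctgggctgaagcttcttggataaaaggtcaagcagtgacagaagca

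The match was present once in each of the 7 promoters, with its first base 61 to 89 bases upstream of the start. Among all 32851 promoters of this length in the RefSeq table, 56 held the letters on either strand, or 0.17%. It was the 1 word of this build (4 bases, 4 free bases, 5 bases) that all 7 promoters held on the strand of the gene. It was thus found in these promoters, and duplicated genes share sequence by descent, so the 7 matches are a description. The matches of the other 4 members are shown with 8 bases on either side, to let the shared letters be compared. They lie at chr5:86926572-86926600 (Ugt2b1, minus strand), chr5:86906990-86907018 (Ugt2b34, minus), chr5:87000782-87000810 (Ugt2b35, plus) and chr5:87092599-87092627 (Ugt2b36, minus).
Ugt2b1: ggttagaaGTTATATGTTAACttcttgat
Ugt2b34: gtgtacaaGTTACACTTTAACtgactgat
Ugt2b35: caactcagGTTATATTTTAACtcgtggat
Ugt2b36: caattccaGTTATATTTTAACttcttggc

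Of 4 other motifs searched on both strands, none overlapped this match in any member. TTCNNNGAA, the form bound by STAT5, was in 0 of 7 promoters and in 7.02% of all. ATTGAT, the core bound by HNF6, was in Ugt2b1 alone and in 6.72% of all. AGGTCA, the hexamer of nuclear receptors, was in 5 of 7 and in 14% of all, with Ugt2b1 and Ugt2b34 the 2 without it. TTGCNNAA, a C/EBP-type site, was in Ugt2b5 and Ugt2b36 and in 9.56% of all.

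Identity between members decides which reads can be placed. Of the windows of 50 bases along the Ugt2b5 transcript, 41.7% occurred without mismatch in another Ugt2 transcript, and most of these were shared with Ugt2b38. For Ugt2b38 the share was 37.4% and for Ugt2b37 18.3%. For Ugt2b34, Ugt2b36, Ugt2b1 and Ugt2b35 it was 2.07%, 0.326%, 0% and 0%. No source used here states the read length. With windows of 100 bases the Ugt2b5 share was 24.7%, and all of it lay before the middle of the transcript.

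**Figure D1:**
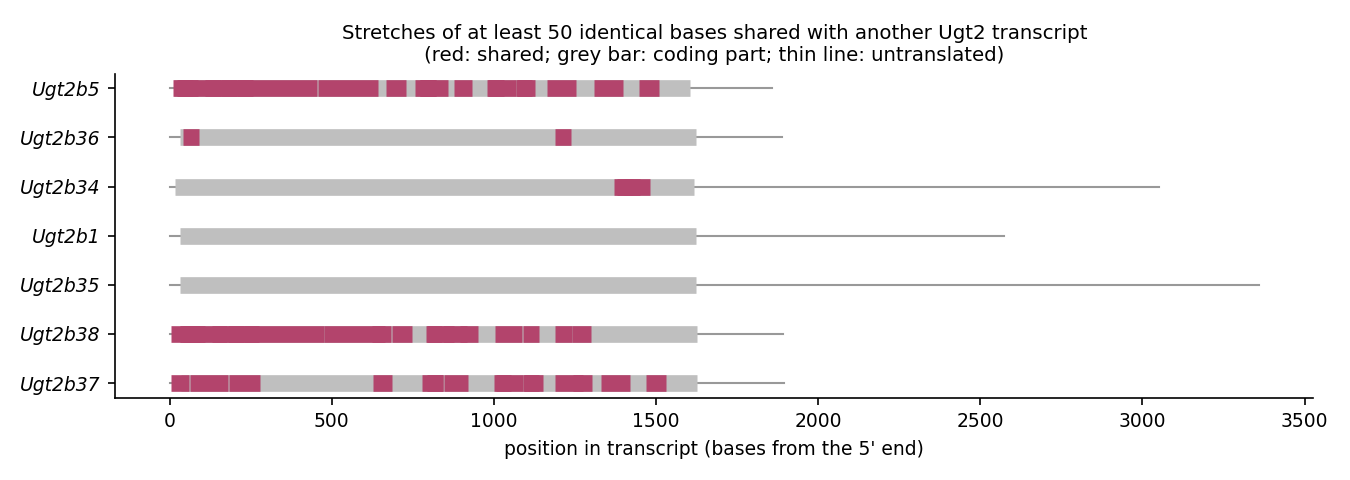
Position along each transcript in bases from the 5′ end, with stretches of at least 50 bases that recur unchanged in another Ugt2 transcript in red, the coding part in grey and untranslated parts as thin lines. Ugt2b5, Ugt2b38 and Ugt2b37 carry most of the red, and Ugt2b1 and Ugt2b35 carry none.

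The deposited reads showed the same division except for Ugt2b37, which lay nearer the distant members. Unique exon reads, those placed at a single position, made up 75.4% of the 158655 Ugt2b5 exon reads over the 15 livers and 75.1% of the 261 Ugt2b38 reads. They made up 97.8% of the 184 Ugt2b37 reads. Ugt2b1 and Ugt2b35 had only unique reads, Ugt2b36 at least 99.97% in any liver and Ugt2b34 at least 99.3%. For Ugt2b5 the share lay between 73.0% and 75.5% in 13 livers, but it was 85.0% in soy liver 1073 and 83.2% in soy liver 1159, the pair that also had few reads outside exons. The part of that difference in the Ugt2b5 level was not tested. For Ugt2b38 the share per liver rested on as little as 1 read, and it stayed between 74.5% and 75.9% in the 3 control livers, where reads were most numerous.

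**Figure D2:**
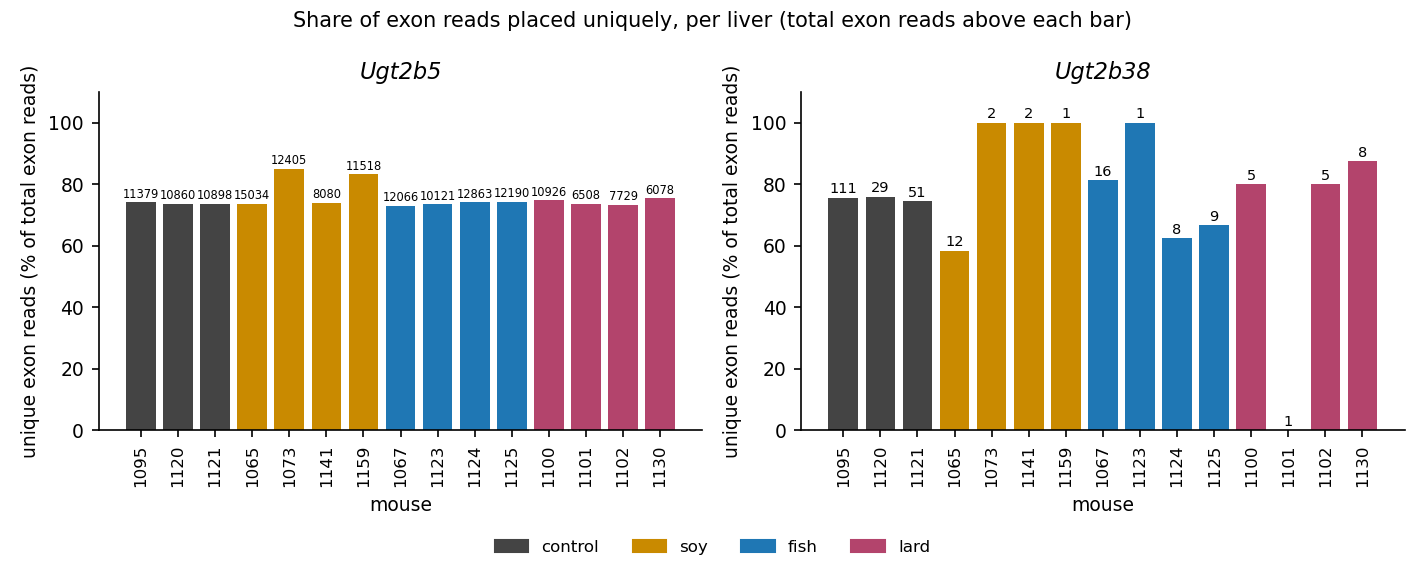
Unique exon reads as a percentage of total exon reads for Ugt2b5 (left) and Ugt2b38 (right) in each of 15 livers, with the number of total exon reads above each bar. Soy livers 1073 and 1159 rise above the other Ugt2b5 bars, and the Ugt2b38 bars outside control livers rest on 1 to 16 reads.

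Levels between genes were compared per length, as the authors' RPKM, reads per kilobase of exon and per 1e6 gene reads of the library. Averaged over 15 livers, Ugt2b5 was the most abundant member at 320.6 ± 56.8 RPKM (SD), followed by Ugt2b36 at 221.0 ± 29.2, Ugt2b34 at 116.7 ± 23.3, Ugt2b1 at 82.2 ± 24.3 and Ugt2b35 at 46.3 ± 17.7. Ugt2b38 and Ugt2b37 were far lower, at 0.565 ± 0.996 and 0.376 ± 0.300 RPKM, so the 2 closest relatives of the most abundant gene were the 2 least abundant. Each of the first 3 steps of this order held in 15 of 15 livers, and Ugt2b1 exceeded Ugt2b35 in 14 of 15. Ugt2b38 exceeded Ugt2b37 in 5 of 15 livers, the 3 control livers among them, so these last 2 are not ordered beyond their spread. With unique reads per kilobase Ugt2b5 exceeded Ugt2b36 in 12 of 15 livers. The authors' exon length limits such comparisons: Ugt2b35 is counted over 1758 bases that end at position 87011674, where the GENCODE transcript has 3359 bases, and Ugt2b34 over 4312 bases although its longest coding transcript has 3051.

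Summed over the 7 members and scaled by trimmed mean of M values (TMM) factors, the RPKM was 865 ± 52.7 in control (n = 3), 826 ± 87.8 in soy, 777 ± 75.4 in fish and 699 ± 88.9 in lard livers (SD, n = 4 each). Ugt2b5 made up 40.7% ± 0.974 of the sum in control, 43.4% ± 2.12 in soy, 41.6% ± 2.69 in fish and 36.5% ± 1.67 in lard livers. Ugt2b1 made up 13.01% ± 1.28, 8.15% ± 2.25, 8.67% ± 1.29 and 12.5% ± 1.54 in the same order, so its part of the family was smaller in soy and fish livers and close to control in lard livers. This is a part of a lower sum in lard livers, where Ugt2b1 itself had 88.1 ± 20.3 RPKM against 112.4 ± 11.2 in control livers. No test was made on these sums.

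**Figure D3:**
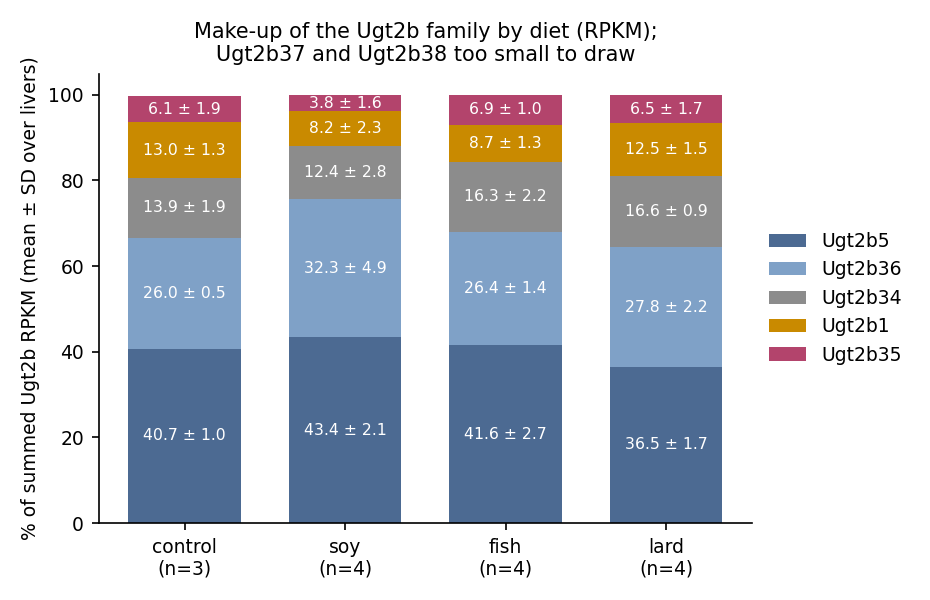
Mean share of each member in the summed Ugt2b RPKM for the 4 diets, with the SD over livers printed in each block. Ugt2b5 and Ugt2b36 fill most of each bar, and Ugt2b1 takes 13.01% in control and 12.5% in lard livers against 8.15% in soy and 8.67% in fish livers.

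The values by diet below are TMM-scaled CPM of total exon reads, and the differences are log2 fold changes with their approximate SE from edgeR's quasi-likelihood fit of all 15 livers, with p adjusted over 12788 genes. The same 3 control livers serve all comparisons with control, and the same 4 soy livers both comparisons with soy. In whole liver, fewer cells of a type and less RNA per cell cannot be told apart. Against control, 0.383% of genes passed in fish livers and 0.508% in lard livers, in either direction. Of the 7 members, Ugt2b38 alone was past the threshold, in both. Both comparisons reuse the 3 control livers whose high Ugt2b38 values led to the choice of the family, so its differences from control are given as a description, with no p, and nothing is read from that count. Of the other 6 members, 0 passed edgeR's quasi-likelihood test. At an unadjusted p under 0.05 the counts were 2 of 7 members in fish livers, beside 8.93% of all genes, and 3 of 7 in lard livers, beside 9.99%, with Ugt2b38 among them in both. The DESeq2 Wald test called 1 of 7 in fish livers, again Ugt2b38, beside 1.29% of all genes, and 2 of 7 in lard livers, Ugt2b38 and Ugt2b5, beside 2.14%. For soy against control, 1.17% of all genes passed.

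Ugt2b38 was lower in every restricted liver than in any control liver. Control livers 1095, 1120 and 1121 had 7.11, 2.02 and 3.196 CPM, from 111, 29 and 51 reads. Fish livers 1067, 1123, 1124 and 1125 had 0.931, 0.0546, 0.484 and 0.467 CPM, from 16, 1, 8 and 9 reads. Lard livers 1100, 1101, 1102 and 1130 had 0.246, 0.0700, 0.355 and 0.722 CPM, from 5, 1, 5 and 8 reads. Control mouse 1095 had the highest level by far, and the groups did not overlap. The log2 fold change was -3.08 ± 0.63 in fish against control and -3.63 ± 0.68 in lard against control. Without control liver 1095 these were -2.43 and -2.98. Over the 15 fits that each left out 1 liver the change ran from -3.60 to -2.43 in fish and from -4.15 to -2.98 in lard. Over the 9 other alternatives it ran from -3.39 to -2.91 and from -3.95 to -3.29.

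Ugt2b38 passed the filter on low counts through the control livers, and a gene that passes in that way had to be higher there. All 3 control livers reached the filter's 0.641 CPM, against 1 of 4 fish, 1 of 4 lard and 0 of 4 soy livers. Soy livers 1065, 1073, 1141 and 1159 had 0.580, 0.121, 0.149 and 0.0713 CPM, from 12, 2, 2 and 1 reads. The log2 fold change of soy against control was -3.98 ± 0.69, and it is the difference for which the gene was first named. Fish liver 1123, the lowest of its group, is the liver with the raised skeletal muscle markers. Between restricted diets the log2 fold change of Ugt2b38 was 0.55 ± 0.77 for fish against lard (adjusted p = 0.909). For fish against soy it was 0.90 ± 0.78. That value is a description with no p, because the soy livers also served to choose the family.

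Ugt2b37, a near copy of Ugt2b38, also had its highest mean in control livers. Its levels were 1.98, 1.11 and 1.63 CPM in control livers 1095, 1120 and 1121, from 16 to 31 reads. They were 1.46, 0.328, 0.424 and 0.778 CPM in fish livers 1067, 1123, 1124 and 1125, and 0.688, 0.210, 0.213 and 0.812 CPM in lard livers 1100, 1101, 1102 and 1130. Lard livers lay below all control livers, and fish liver 1067 lay among them. The log2 fold change was -1.70 ± 0.59 in lard (adjusted p = 0.256) and -1.08 ± 0.55 in fish (adjusted p = 0.619), so neither passed. Soy livers 1065, 1073, 1141 and 1159 held 0.822, 0.181, 0.522 and 0.143 CPM, a log2 fold change of -1.84 ± 0.58 against control. Across the 15 livers the log2 CPM of Ugt2b37 and Ugt2b38 had a Pearson r of 0.87, and 0.86 in the 13 without soy livers 1073 and 1159. This is a description over livers that share depth and diet groups, and the 2 genes share reads.

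Ugt2b1, an enzyme with male-predominant expression, had its highest mean in control livers. Control livers 1095, 1120 and 1121 had 278.5, 337.0 and 329.4 CPM. Fish livers 1067, 1123, 1124 and 1125 had 202.7, 148.2, 177.0 and 230.6 CPM, all below the control livers. Lard livers 1100, 1101, 1102 and 1130 had 260.4, 164.2, 278.2 and 284.6 CPM, with the last inside the control range. The log2 fold change was -0.73 ± 0.23 for fish against control (adjusted p = 0.310) and -0.35 ± 0.23 for lard against control (adjusted p = 0.718). Neither passed the threshold. Soy livers 1065, 1073, 1141 and 1159 had 263.6, 125.8, 166.0 and 190.1 CPM and a log2 fold change of -0.76 ± 0.23 against control. Over the 9 alternatives other than single omissions it ran from -0.89 to -0.55. Leaving out soy livers 1073 and 1159 together is among these. Fish and soy livers overlapped, at 0.02 ± 0.22 (adjusted p = 0.951). Fish against lard gave -0.38 ± 0.22 (adjusted p = 0.596).

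Ugt2b5, the most abundant member, was lowest in lard livers. Lard livers 1100, 1101, 1102 and 1130 had 536.8, 455.5, 548.4 and 548.7 CPM. Control livers 1095, 1120 and 1121 had 728.4, 754.8 and 683.0 CPM, fish livers 1067, 1123, 1124 and 1125 had 702.3, 552.5, 778.6 and 632.1 CPM, and soy livers 1065, 1073, 1141 and 1159 had 727.2, 750.0, 602.2 and 821.1 CPM. In total exon reads every lard liver therefore lay below every other liver. In unique exon reads it did not hold, with lard liver 1130 at 457.0 CPM and fish liver 1123 at 447.5 CPM. The log2 fold change was -0.47 ± 0.14 for lard against control, -0.47 ± 0.13 for lard against soy and 0.35 ± 0.13 for fish against lard. The adjusted p were 0.161, 0.229 and 0.370, so none passed. By the DESeq2 Wald test, lard passed against control (adjusted p = 0.0390) and against soy (adjusted p = 0.0317), a test that called 2.14% and 1.18% of all genes. Soy against control was 0.01 ± 0.14 and fish against control -0.12 ± 0.14.

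Ugt2b36 had its 2 highest values in soy livers. Control livers 1095, 1120 and 1121 had 497.0, 525.9 and 486.7 CPM, fish livers 1067, 1123, 1124 and 1125 had 475.2, 428.7, 482.1 and 454.8 CPM, and lard livers 1100, 1101, 1102 and 1130 had 479.8, 388.6, 423.1 and 445.5 CPM. Soy livers 1065 and 1141 had 498.2 and 506.2 CPM, and soy livers 1073 and 1159 had 688.6 and 656.6 CPM. Both of the high values belong to the libraries that stood apart in reads outside exons. Fish and lard livers lay below all soy livers, at a log2 fold change of -0.35 ± 0.12 for fish (adjusted p = 0.126) and -0.44 ± 0.12 for lard (adjusted p = 0.229). Without soy livers 1073 and 1159 these became -0.13 and -0.21, with adjusted p of 0.673 and 0.790. Against control they were -0.13 ± 0.13 and -0.21 ± 0.13, and soy against control was 0.22 ± 0.13.

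Ugt2b35, the one member on the plus strand, had its lowest values in 3 soy livers. Soy livers 1065, 1073, 1141 and 1159 had 95.6, 36.3, 57.9 and 44.8 CPM. Fish livers 1067, 1123, 1124 and 1125 had 105.9, 99.6, 121.4 and 84.8 CPM, and lard livers 1100, 1101, 1102 and 1130 had 78.9, 58.2, 88.0 and 130.6 CPM. Control livers 1095, 1120 and 1121 spread from 131.6 over 105.6 to 66.9 CPM. The log2 fold change was 0.81 ± 0.30 for fish against soy (adjusted p = 0.137) and 0.60 ± 0.30 for lard against soy (adjusted p = 0.306). Without soy livers 1073 and 1159 they were 0.42 and 0.21, and neither passed. Soy against control was -0.79 ± 0.32, while fish against control was 0.02 ± 0.32 and lard against control -0.19 ± 0.32. Over the 9 alternatives other than single omissions, soy against control ran from -0.92 to -0.40. Leaving out soy livers 1073 and 1159 together is among these.

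Ugt2b34 spread widely within each diet. Control livers 1095, 1120 and 1121 had 469.4, 665.6 and 560.3 CPM, and fish livers 1067, 1123, 1124 and 1125 had 603.8, 492.4, 567.5 and 725.1 CPM. Lard livers 1100, 1101, 1102 and 1130 had 586.1, 412.2, 593.2 and 595.4 CPM, and soy livers 1065, 1073, 1141 and 1159 had 631.1, 349.3, 450.6 and 464.4 CPM. The groups overlapped in each of the 6 comparisons. Tested log2 fold changes ran from -0.05 ± 0.20 for lard against control to 0.33 ± 0.19 for fish against soy (adjusted p = 0.984 and 0.278).

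**Figure D4:**
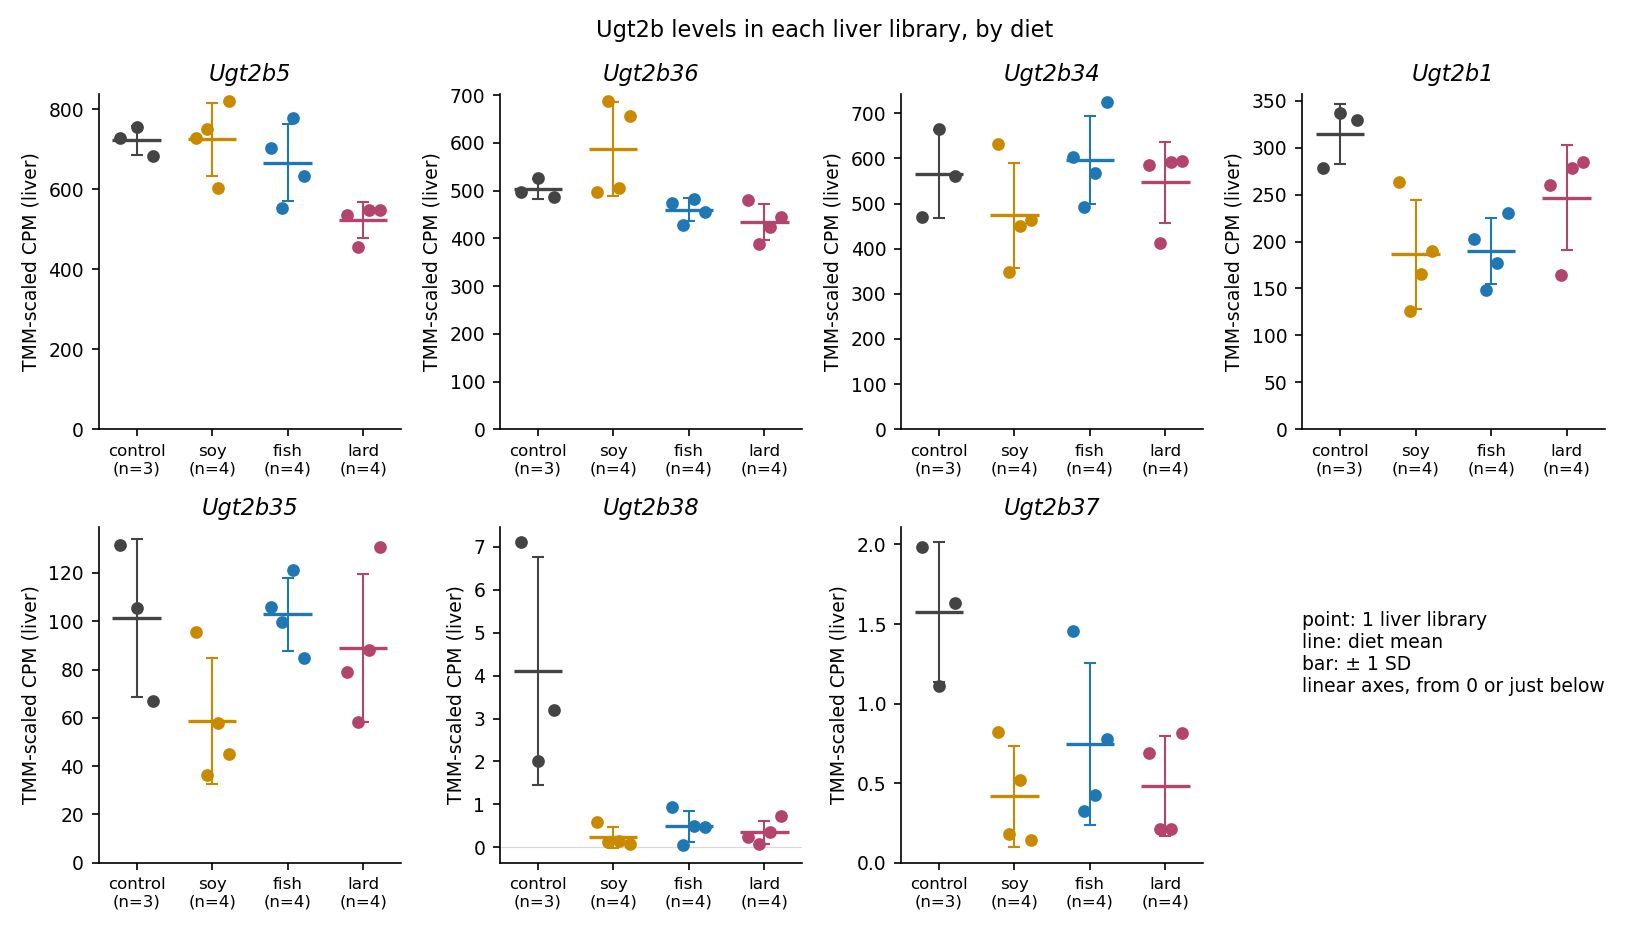
TMM-scaled CPM of each Ugt2b gene in each liver (points) by diet, with the mean as a line and 1 SD as a bar, on linear axes that differ between panels. Control points lie above all others for Ugt2b38. Lard points lie below all others for Ugt2b5 in these total exon reads, though not in unique exon reads.

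Groups of livers that did not overlap were counted for all 7 members and set beside the share of all genes with the same property. Fish livers lay below control livers for 3 members (7.05% of all genes) and lard livers for 4 (7.26%), while 0 members lay above (6.21% and 7%). Ugt2b38 is counted as below in both. It passed the filter through the control livers and had to be higher there, so nothing is read from these counts. The others were Ugt2b1 and Ugt2b36 in fish livers, and Ugt2b5, Ugt2b36 and Ugt2b37 in lard livers. Soy livers, the contrast by which the family was chosen, lay below control for 3 members (6.45%) and above for 0 (5.97%), from which nothing is read. Fish livers lay below soy livers for Ugt2b36 alone (3.65%) and above for none (3.71%). Lard livers lay below soy livers for Ugt2b5 and Ugt2b36 (2.17%) and above for none (2.17%). Fish livers lay above lard livers for Ugt2b5 (4.6%) and below for none (5.29%), but in unique exon reads these Ugt2b5 groups overlapped.

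Between restricted diets no member passed edgeR's quasi-likelihood test. The soy livers served to choose the family through Ugt2b38, so nothing is read for Ugt2b38 against soy. Of all genes, 0.0938% passed for fish against soy, 0% for lard against soy and 0.203% for fish against lard. At an unadjusted p under 0.05, 2 of 7 members were past for fish against soy, where 23.1% of all genes were. The figures were 2 of 7 beside 17.3% for lard against soy, and 1 of 7 beside 9.98% for fish against lard. DESeq2 called 1, 2 and 0 members in the same order, beside 6.36%, 1.18% and 1.28% of all genes. Without soy liver 1065, Ugt2b35 and Ugt2b36 passed for fish against soy (adjusted p = 0.0193 and 0.0321) and Ugt2b36 for lard against soy (adjusted p = 0.0405). Without soy liver 1141, Ugt2b36 passed in both (adjusted p = 0.0444 and 0.0472), and Ugt2b5 passed for lard against soy (adjusted p = 0.0472). Of all genes, 16.4% and 6.12% passed for fish and lard against soy without soy liver 1065, and 10.4% and 4.1% without soy liver 1141. Both omissions leave a soy group in which 2 of 3 livers are those that stood apart. Over all 7 members, Ugt2b38 included, the median log2 fold changes were 0.33, 0.21 and 0.21, beside 0.016, -0.0022 and 0.0060 over all genes. Against control the medians were -0.13 in fish and -0.35 in lard livers, beside 0.011 and 0.0046.

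**Figure D5:**
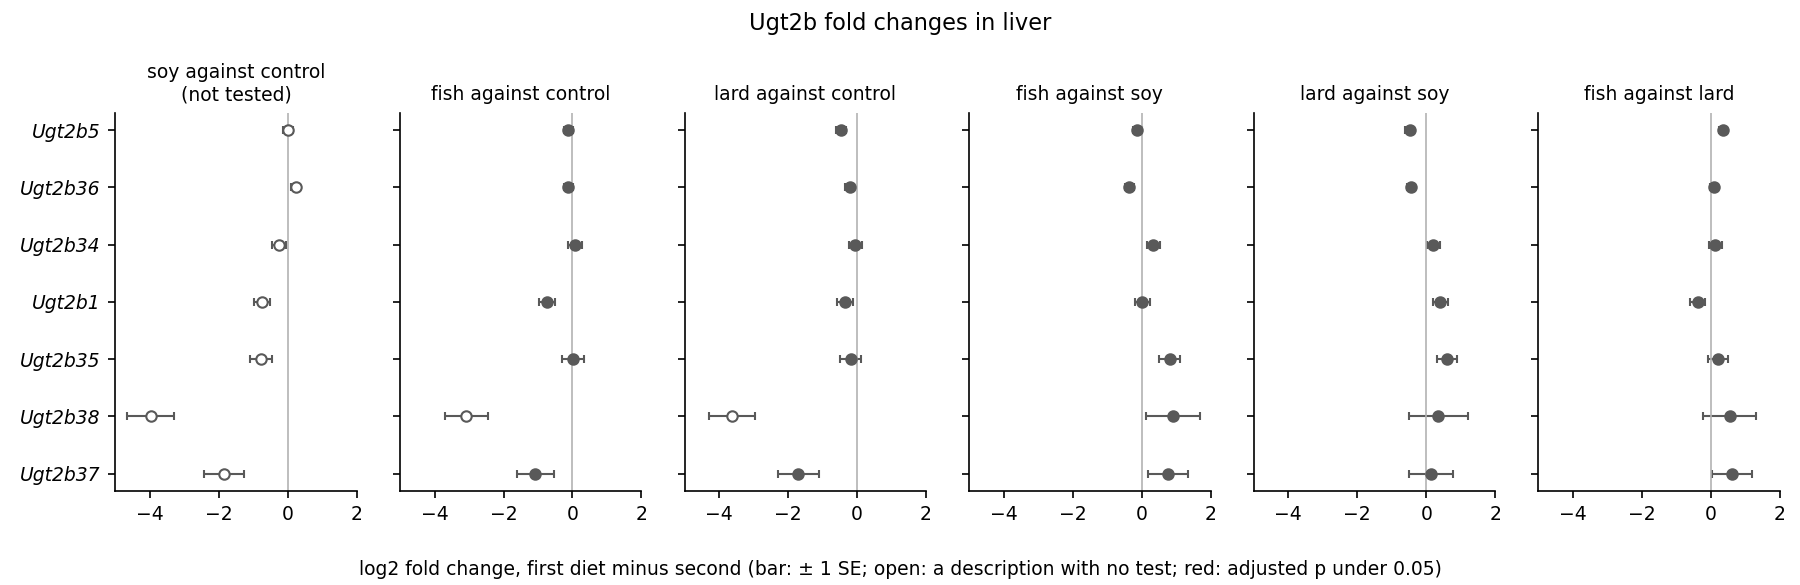
Log2 fold change of each Ugt2b gene (first diet minus second) in 6 liver comparisons, with bars of 1 SE. Open points are descriptions with no test: soy against control, and Ugt2b38 in fish (-3.08) and lard (-3.63) against control. Ugt2b38 in fish and lard against soy is drawn filled but is also a description. No other point passed at an adjusted p under 0.05.

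The members differed in how much they varied over the 15 livers. The coefficient of variation of CPM was 16.6% for Ugt2b5, 16.2% for Ugt2b36, 18.7% for Ugt2b34, 29.1% for Ugt2b1 and 34.3% for Ugt2b35. It was 75.7% for Ugt2b37 and 169% for Ugt2b38, which had the fewest reads. Among pairs of the abundant members, Ugt2b5 and Ugt2b36 had a Pearson r of 0.75 over 15 livers and 0.80 over the 13 without soy livers 1073 and 1159. For Ugt2b35 and Ugt2b36 the r was -0.56 over 15 and 0.23 over 13 livers, so its sign rested on those 2 livers.

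The genes whose log2 CPM was most like that of a member over the 15 livers were ranked by Pearson r, leaving out genes below 5 CPM on average. For Ugt2b38 they were Srd5a1, a steroid 5α-reductase (r = 0.94), Mup7, a major urinary protein (0.88), and C9, a terminal complement component (0.87). Without soy livers 1073 and 1159 these were 0.94, 0.88 and 0.95. For Ugt2b1 they were Abhd2 (0.87), Mup2 (0.86) and AI182371 (0.85). For Ugt2b35 they were Tbc1d5 (0.93), Slc35d1 (0.91) and Sox5 (0.90), and Slc35d1, which carries UDP-glucuronate into the endoplasmic reticulum, kept 0.86 without those livers. For Ugt2b36, Mrpl49 (0.96), Itm2b (0.92) and Svbp (0.92) came first, and the last 2 dropped to 0.68 and 0.66 without them. Acd, Gss and March2 came first for Ugt2b5 (0.88, 0.87 and 0.86), and Galnt1 and Nadk2 were among the first for Ugt2b34 (0.88 and 0.88). Ugt2b37 was too low to be ranked. These livers share depth and diet, and each list holds the highest of many correlations. The list of Ugt2b38 also rests on the control and soy livers by which the family was chosen, so nothing is read from it.

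Other genes of the pathway were counted in the same comparisons. Of 15 other UDP-glycosyltransferases, 13 were tested, and 1 passed in 1 of the 5 tested comparisons. That was fish against soy, where 0.0938% of all genes passed. At an unadjusted p under 0.05 the counts were 4, 5, 2, 1 and 4 of 13 for fish against control, lard against control, fish against soy, lard against soy and fish against lard. The shares of all genes were 8.93%, 9.99%, 23.1%, 17.3% and 9.98%. DESeq2 called 0, 2, 2, 0 and 3 of 13, beside 1.29%, 2.14%, 6.36%, 1.18% and 1.28% of all genes. Each Ugt1a gene of this list had at most 6.82% unique reads over the livers. These genes are therefore not independent, and nothing is read from the counts. Ugt1a6a, which conjugates planar phenols, was lower in fish (50.5 to 54.4 CPM) than in soy livers (75.2 to 97.9 CPM), at a log2 fold change of -0.73 ± 0.12 (adjusted p = 0.0307). Without soy livers 1073 and 1159, 0 genes passed for fish against soy, so Ugt1a6a did not. The same held without soy liver 1073 alone, and without fish liver 1067, 1124 or 1125 alone. Only 5.73% of its reads were unique, because the Ugt1a genes share their last exons, so its own level is uncertain. Ugt3a1 had the smallest p among the others, at -0.88 ± 0.22 for lard against control (adjusted p = 0.0998) and 0.88 ± 0.21 for fish against lard (adjusted p = 0.118). Ugt1a1, which conjugates bilirubin, stood at 0.40 ± 0.13 for fish against control (adjusted p = 0.315), with 3.79% of its reads unique. Ugt1a6a came first in lard against soy, at -0.26 (adjusted p = 0.281).

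For the supply of UDP-glucuronate and the turnover of glucuronides, 8 of 8 genes were tested and 0 passed edgeR's quasi-likelihood test in any comparison. At an unadjusted p under 0.05 the counts were 0, 1, 2, 0 and 0 of 8 for fish against control, lard against control, fish against soy, lard against soy and fish against lard. The shares of all genes were 8.93%, 9.99%, 23.1%, 17.3% and 9.98%. DESeq2 called 0 in each, beside 1.29%, 2.14%, 6.36%, 1.18% and 1.28% of all genes. Ugdh, which makes UDP-glucuronate, had log2 fold changes of -0.36 for lard against control and 0.29 for fish against lard (adjusted p = 0.491 and 0.565). Ugp2, which makes its precursor UDP-glucose, had -0.28 for fish against control (adjusted p = 0.614), and Slc35d1 0.17 for lard against soy (adjusted p = 0.589). Gusb, the lysosomal β-glucuronidase that removes the sugar, had -0.30 for fish against soy (adjusted p = 0.145).

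Among 19 transcription factors and receptors with known or proposed roles at Ugt genes, 19 were tested and 0 passed. Unadjusted counts in the order above were 4, 3, 2, 2 and 2 of 19, beside 8.93%, 9.99%, 23.1%, 17.3% and 9.98% of all genes. DESeq2 called 1, 2, 1, 0 and 1 of 19, beside 1.29%, 2.14%, 6.36%, 1.18% and 1.28% of all genes. Cux2, a repressor known for female-predominant expression in liver, had the smallest p against control. Its levels were 0.501 to 0.556 CPM in control, 2.18 to 33.1 CPM in fish and 4.87 to 31.4 CPM in lard livers. These did not overlap, beside 6.21% and 7% of all genes without overlap and higher in fish and lard livers. No control liver reached the filter's 0.641 CPM, so Cux2 passed through restricted livers and had to be higher there. Its log2 fold changes, 4.999 ± 1.12 in fish and 4.84 ± 1.12 in lard, are therefore descriptions. Esr1, the estrogen receptor α, stood at -1.05 ± 0.29 for fish against lard (adjusted p = 0.190), and Cebpa at -0.31 for fish against soy (adjusted p = 0.131).

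Hindlimb muscle held few Ugt2b reads. Over 14 muscles Ugt2b38 had 0 reads in each, which allows up to 0.111 to 0.238 CPM per library by counting error alone. Ugt2b37 had 1 read in 1 muscle. The other 5 members had 1 to 57 reads per muscle and at most 1.25 RPKM, the highest for Ugt2b5. The 6 hepatocyte markers summed to 162 to 541 CPM in the same muscles, and their part in these reads was not tested.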

How the data were processed

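The authors sequenced TruSeq libraries of Trizol-extracted RNA from liver and hindlimb muscle, and discarded control liver 1071 and fish muscle 1125, per the series text. The submitters' processing notes name FastQC and GRCm38. The aligner, counter, annotation release and strand setting remain not given in the sources used here. The deposited tables give, per the file headers, 3 counts for each library (total exon, unique exon and total gene reads) and RPKM.

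Of 38124 identifiers, 36345 were matched to GENCODE M21 symbols. Tissue and diet of each library were taken from the labels. Total exon counts were fitted with edgeR 4.0.16 in R 4.3.3 (filterByExpr with a minimum count of 10, TMM factors, quasi-likelihood test, all 15 livers in one fit, common biological coefficient of variation 0.212), with Benjamini-Hochberg adjustment and a threshold of 0.05. CPM are exon reads per 1e6 of the TMM-scaled library total in liver, and of the unscaled library total in muscle. SE is the log2 fold change divided by the square root of F. Nothing states that libraries of a diet came from separate cages or extractions, so p measures the spread between these mice. For correlations, log2 CPM had a prior count of 2. Identities come from global alignments in Biopython of GENCODE M21 coding sequences and of RefSeq promoters, and shared windows from GENCODE M21 transcripts of Ugt2 genes. The procedure was tested on simulated data. Counting intervals and floors cover counting error only.

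Members and gene lists were chosen with earlier results of these data known. The text names all 7 members. From each of the 3 other lists and each tested comparison it names members past the threshold (at most 5), or the 1 of smallest p as a value. For each member with a mean of at least 1 CPM it names the 3 most correlated other genes. A few results that this rule picks are left out of the text. Alternatives were unique exon reads, total gene reads, size factors and the Wald test of DESeq2 1.42.0, no filter, a fit of only the diets compared, a block for library number, leaving out soy livers 1073 and 1159, and leaving out each library. Library totals without TMM factors were added after seeing the data.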

Additional observations from a re-analysis of the deposited data

Results flagged for a closer look

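Of 24 sets of 4 livers on one diet that were examined for a library apart from the other 3, 3 held one, where chance gives about 1 in 20. The sets reuse the same livers and are not independent, so nothing is read from that comparison. Lard liver 1101 was low for Ugt2b5, at 455.5 CPM against a highest lard value of 548.7 CPM. It was also low for Ugt2b34, at 412.2 CPM against a highest lard value of 595.4 CPM. Soy liver 1065 was high for Ugt2b38, at 0.580 CPM, while the lowest soy liver had 0.0713 CPM. Groups of 3 were not examined in this way.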

How the results depend on the processing

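In the order fish against control, lard against control, fish against soy, lard against soy and fish against lard, the counts of genes past the threshold were 49, 65, 12, 0 and 26. The DESeq2 Wald test gave 165, 274, 813, 151 and 164. A fit of the 2 compared diets alone gave 78, 166 and 136 for fish against control, lard against control and fish against lard, and 1 for fish against soy. Without soy livers 1073 and 1159 the counts were 137, 236 and 98 for the same 3 and 0 for fish against soy. Total gene reads gave 41 for fish against lard. Leaving out 1 library at a time gave 15 to 81, 12 to 85, 0 to 2092, 0 to 780 and 0 to 43. The highest counts for fish and lard against soy came without soy liver 1065, and without soy liver 1141 they were 1329 and 524.

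The members past the threshold numbered 1, 1, 0, 0 and 0 in the same order, the 1 being Ugt2b38, whose differences from control are descriptions. For fish against control the number was 0 with total gene reads, with the 2 diets alone, with library totals without TMM and with the replicate block, where the change in Ugt2b38 stayed between -3.39 and -2.91. For lard against control it was 0 with total gene reads and 2 with DESeq2, which also gave 1 for fish against soy and 2 for lard against soy. Leaving out 1 library gave 0 to 1 against control in both diets, with 0 for fish without any 1 control, fish or lard liver and 0 for lard without control livers 1095 or 1121 or lard livers 1100, 1101 or 1102, and 0 to 2 against soy in both.

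Each library number of the labels (42 to 45) is shared by 1 liver of each restricted diet, and all but 42 also by a control liver. Deviations from the group means of 21 same-number pairs correlated at -0.158 to 0.155, and 3 of 21 were over 0.1, so the numbers were not taken to pair livers. With the number as a replicate block, 26, 39, 4 and 13 genes passed for fish against control, lard against control, fish against soy and fish against lard. The block gave -0.046 for Ugt2b35 in fish against control and -0.0033 for Ugt2b5 in soy against control, both reversed in sign.

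Library totals without TMM, tried after seeing the data, shifted the median log2 fold change of all genes by 0.19 for fish against soy, 0.14 for fish against lard and -0.15 for soy against control. Genes past the threshold for fish against soy then numbered 30, with 28 higher and 2 lower in place of 9 and 3. For fish against lard 20 were higher and 14 lower in place of 9 and 17, for fish against control 18 and 36 in place of 10 and 39, and for lard against control 20 and 73 in place of 23 and 42. Ugt2b5 turned to 0.075 in fish against soy and to -0.15 in soy against control.

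Of 42 member comparisons, 10 changed sign under some alternative, all of them values that did not pass or were not tested. Total gene reads turned Ugt2b35 to -0.023 in fish against control and Ugt2b1 to -0.0035 in fish against soy. Without soy livers 1073 and 1159, Ugt2b1 and Ugt2b5 turned to -0.18 and 0.0021 in fish against soy, Ugt2b37 and Ugt2b38 to -0.51 and -0.28 in lard against soy, and Ugt2b5 and Ugt2b36 to -0.12 and -0.0049 in soy against control. With 1 library left out, fish against control ran from -0.047 to 0.21 for Ugt2b34 and -0.21 to 0.25 for Ugt2b35. Lard against control ran from -0.17 to 0.086 and -0.43 to 0.033 for the same genes. Ugt2b1 ran from -0.12 to 0.24 in fish against soy, Ugt2b37 from -0.15 to 0.79 and Ugt2b38 from -0.16 to 1.46 in lard against soy, and Ugt2b5 from -0.068 to 0.086 in soy against control. Ugt2b38 in soy against control was -5.08 without soy liver 1065. The cause of these shifts was not tested. For Ugt2b37 and Ugt2b38, 2 to 31 and 1 to 111 reads per liver limit what can be told between restricted diets.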
